A study of Mus musculus with 2 samples.

Results

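Cullin-RING ubiquitin ligases were followed here through their scaffold genes and 2 large groups of substrate adaptors in CMT167R cells, with and without an agent that the labels call PKCi. The genes were chosen by symbol among the protein-coding rows: numbered cullins (Cul), F-box proteins of the WD40, leucine-rich repeat and other classes (Fbxw, Fbxl, Fbxo), and Kelch-like and Kelch-repeat BTB proteins (Klhl, Kbtbd), with Fbxo32 left out. No measured value entered that choice. It gave 130 of the 54532 genes in the table: 8 cullins, 77 F-box genes and 45 Klhl and Kbtbd genes. The study comprised 2 RNA-seq libraries, 1 from untreated CMT167R cells (CON) and 1 from CMT167R cells given 50 nM PKCi for 24 h (PKCi). Both came from the same line, which the labels describe as anti-PD1 resistant; CMT167 itself is a mouse lung carcinoma line. The labels do not say how the resistant line was derived, whether it is 1 clone, which compound PKCi is, or whether the untreated cells received a vehicle.

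Cullin-RING ligases attach ubiquitin to chosen proteins and so mark many of them for the proteasome. The cullin is a curved scaffold that holds a RING subunit, which recruits the ubiquitin-loaded enzyme, at one end and a substrate adaptor at the other. CUL1 takes F-box proteins through the linker SKP1, whereas CUL3 binds BTB-domain proteins directly, and most KLHL and KBTBD proteins are of that kind. Attachment of NEDD8 switches the cullin on, the COP9 signalosome removes it, and CAND1 exchanges one adaptor for another. The adaptor decides the substrate, so a cell's set of adaptors sets which proteins can be turned over. In dividing cells such adaptors are best known for the removal of cyclins, mitotic regulators and transcription factors.

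Library totals were 16090186 counts in CON and 16071153 in PKCi, so that a level of 1 CPM, counts scaled to a library total of 1000000, corresponded to 16.1 counts in either. A gene was taken as measured at 1 CPM or more in at least 1 library. Differences are given as log2((PKCi CPM + 1)/(CON CPM + 1)), which understates the change of low genes, and "2-fold" means at least 1 or at most −1 on that scale. Beside them stands the plain ratio of CPM values with an exact 95% interval that covers counting error only. With 1 library per group there is no replicate check: every difference below compares these 2 libraries, and no p-value was computed. Of 8 lung and epithelial markers, 4 were at 0 in both libraries (Nkx2-1, Scgb1a1, Sftpb and Sftpc), and the 8 summed to 1582 CPM in CON and 1956 in PKCi, led by Krt8. Of 9 retina markers 6, Crx and Nrl included, were at 0 in both libraries and the list summed to 0.249 and 0.373 CPM, although 1 extraction protocol in the labels speaks of retinas. Fibroblast markers summed to 100.3 CPM in CON and 35.9 in PKCi, with none of 6 at 0, and leukocyte markers to 10.6 and 6.72 with 5 of 8 at 0, Ptprc included; endothelial markers summed to 0.621 and 1.18 CPM. Their part in the results was not tested, and in such bulk RNA fewer cells of a type and less RNA per cell cannot be told apart.

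Within the ligase genes, 84 of 130 were measured, 79 of them in both libraries. In the PKCi library 8 of the 84 were at least 2-fold higher (Klhl24, Fbxl20, Fbxl22, Klhl33, Fbxl5, Klhl28, Fbxw10 and Fbxl21) and 0 were at least 2-fold lower. The background was 6.53% of 12273 measured genes higher and 5.13% lower, or 6.46% and 5.36% of the 10943 protein-coding ones, against 9.52% and 0 of the ligase genes. Of the 8 genes, 5 were at 1 CPM or more in both libraries, and Fbxl22, Fbxw10 and Fbxl21 passed through the PKCi library alone. With a filter of 5 CPM the count was 4 of 75, which is 5.33%, against 6.18% of 10271 genes at the same filter. The share of higher genes thus lay near the background, above it with the one filter and below it with the other. Over all 84 measured ligase genes 55 lay above 0 and 29 below, 65.5% above against 48.5% of protein-coding genes, and the median log2 ratio was 0.18 against −0.02. Of the 84, 4 passed the filter through PKCi alone and 1 through CON alone, so the filter fixed their direction. Among genes under 2-fold in both directions, 47 of 76 ligase genes lay above 0, 61.8% against 47.7% of protein-coding genes. Most differences were small, with 57 of the 84 within 1.5-fold in the plain ratio, or 67.9% against 63.5% of protein-coding genes.

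**Figure D1:**
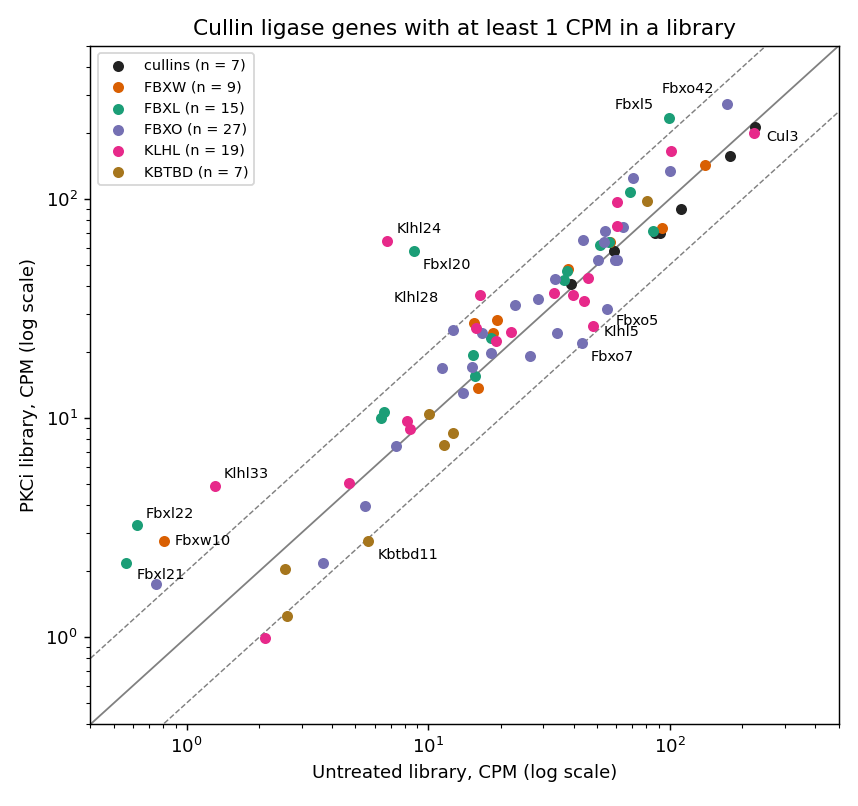
Level of each measured ligase gene in the CON library (horizontal) and the PKCi library (vertical), in CPM on log axes, coloured by family, with the line of equal level and lines at a plain 2-fold ratio. Klhl24 (6.77 and 64.6 CPM) and Fbxl20 (8.70 and 57.9 CPM) stand farthest above the line of equal level, and Fbxo7 (43.2 and 21.96 CPM) lies below it.

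Klhl24, which encodes a CUL3 adaptor known for the turnover of keratin 14 in skin, had the largest difference. It had 109 counts in CON and 1038 in PKCi, or 6.77 and 64.6 CPM. The PKCi library was thus 9.53-fold higher, with an interval of 7.82 to 11.7, and the log2 ratio was 3.08. The gene (ENSMUSG00000062901) lies on the plus strand at chr16:20097542-20129221 of GRCm38, with up to 8 exons in a coding transcript. Its share of all Klhl and Kbtbd counts, 0.762% in CON (exact interval 0.626 to 0.919), was 6.15% in PKCi (5.79 to 6.52). Its neighbour Klhl6, a family member known from B cells, was at 0 in both libraries.

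Fbxl20, an F-box protein known for the turnover of the synaptic vesicle-release factor RIM1, came next. It had 140 counts in CON and 930 in PKCi, or 8.70 and 57.9 CPM. The ratio was 6.65-fold (5.56 to 8.00) and the log2 ratio 2.60. The gene (ENSMUSG00000020883, chr11:98082556-98150403, minus strand) has up to 15 exons in a coding transcript. Its closest relative in the list, Fbxl2, was also higher in PKCi, at 103 and 161 counts, but by 1.56-fold (1.21 to 2.02). Fbxl2 shares 11.2% of its exon bases with Ubp1 on the opposite strand, and whether counting used strand is not given in the sources used here.

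Klhl28, a Kelch-like gene about whose substrates little is known, was higher by a smaller factor. It had 264 counts in CON and 586 in PKCi, or 16.4 and 36.5 CPM, a ratio of 2.22 (1.92 to 2.58) and a log2 ratio of 1.11. The gene (ENSMUSG00000020948) lies on the minus strand at chr12:64938833-64965534 and has up to 5 exons. The sequences before the RefSeq starts of Fbxl20 and Klhl28 are shown because both genes were higher in PKCi by more than 2-fold, and the pair was chosen after the values were seen. They come from RefSeq on GRCm38.p6, at chr11:98149617-98149766 and chr12:64965537-64965686, both on the minus strand, each 150 bases up to the start and written 5′ to 3′, with CpG dinucleotides in capitals. The RefSeq start of Fbxl20 lies 787 bases inside the listed gene span, so its stretch precedes that start and not the outermost annotated one.
Fbxl20: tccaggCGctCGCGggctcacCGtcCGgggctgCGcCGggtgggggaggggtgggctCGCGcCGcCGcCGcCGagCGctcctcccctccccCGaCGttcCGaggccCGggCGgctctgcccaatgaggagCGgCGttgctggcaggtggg
Klhl28: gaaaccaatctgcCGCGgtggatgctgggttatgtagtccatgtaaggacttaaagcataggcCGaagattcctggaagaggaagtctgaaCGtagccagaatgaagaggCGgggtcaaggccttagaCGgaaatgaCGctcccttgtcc
The Fbxl20 stretch holds 21 CpG dinucleotides and the Klhl28 stretch 7. In the full window of 300 bases, 250 before the start and 50 after it, Fbxl20 had 33 CpG dinucleotides, more than 91.4% of all windows, and Klhl28 had 18, more than 70.3%. The median was 22 over windows of measured ligase genes, 21 over those of measured protein-coding genes and 7 over all windows. In neither window were the letters of any of 5 searched motifs present on either strand: TTTCCCGC and TTTGGCGC (E2F type), TTTGAA (the cell-cycle homology region, CHR), TGACTCA (AP-1) and TGACGTCA (CRE).

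The same search over the measured ligase genes with a RefSeq window, 66 genes with 88 windows, gave few matches. TGACTCA was in 6.82% of the ligase gene windows and 3.90% of 11148 windows of measured protein-coding genes, against 5.20% of all 32851 windows. TTTGAA was in 12.5%, 11.9% and 17.9%, and TGACGTCA in 2.27%, 3.28% and 1.79%. The E2F-type strings TTTCCCGC and TTTGGCGC were in 1.14% and 0 of the ligase gene windows, and in 2.16% and 0.978% of those of measured protein-coding genes; over all windows they were in 1.07% and 0.514%. The 6 genes with TGACTCA were Cul1, Fbxl4, Fbxo4, Fbxw5, Kbtbd7 and Klhl21. Of these, Cul1 and Kbtbd7 were lower in PKCi and the others higher. The only gene with TTTCCCGC was Klhl15. Of the 8 genes at least 2-fold higher 6 had a window, all but Klhl24 and Fbxl5, and 0 of the 6 carried a searched string.

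**Figure D2:**
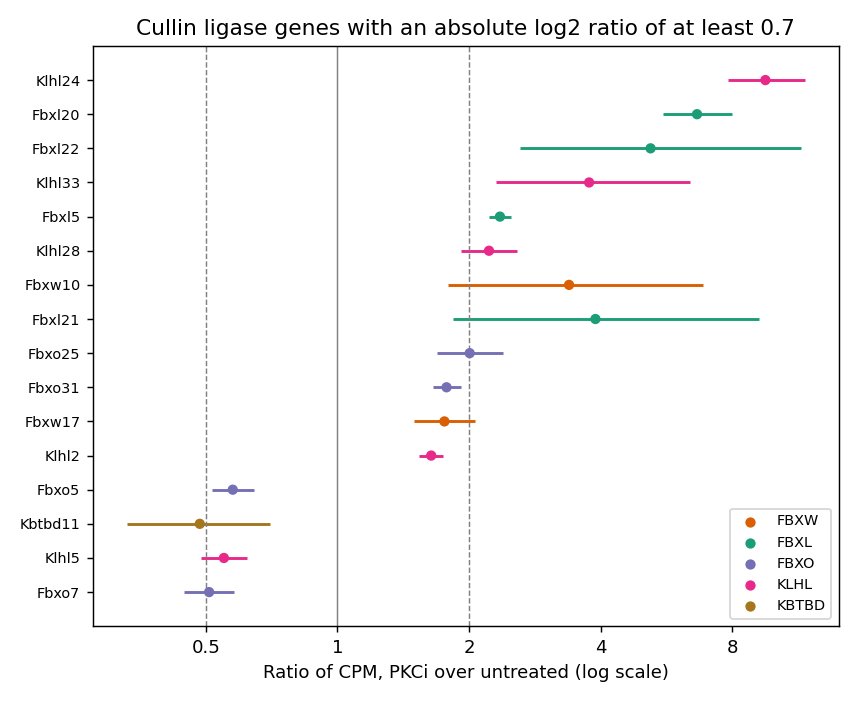
Plain ratio of PKCi to CON CPM, on a log axis, for adaptor genes with an absolute log2 ratio of at least 0.7, ordered by that ratio, with exact 95% intervals for counting error alone; colours give the family. Klhl24 and Fbxl20 have narrow intervals above 5-fold, whereas Fbxl22 (2.62 to 11.5) and Fbxl21 (1.83 to 9.21) have wide ones that rest on few counts.

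The scaffolds themselves were nearly level and, as far as they differed, were mostly lower in PKCi. Of 7 measured cullins 6 lay below 0 and 1 above, with log2 ratios from −0.37 to 0.06 and a median of −0.18; their summed level was 791 CPM in CON and 700 in PKCi. Cul5, the scaffold of the SOCS-box ligases, had 1471 counts in CON and 1130 in PKCi, 1.30-fold lower (1.20 to 1.41). Cul4a, which uses DDB1 as its linker, had 1794 and 1443 counts, 1.24-fold lower (1.16 to 1.33). Cul2, the scaffold that carries VHL, had 1399 and 1130 counts, also 1.24-fold lower (1.14 to 1.34). These 3 scaffolds thus had the larger differences of the family.

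The partners of the adaptors described here, Cul1 and Cul3, differed less. Cul1 had 2849 counts in CON and 2516 in PKCi, 1.13-fold lower (1.07 to 1.19). Cul3 had 3638 and 3436 counts, 1.06-fold lower (1.01 to 1.11). Cul4b, the X-linked relative of Cul4a, had 942 and 928 counts, and the interval of its PKCi to CON ratio (0.900 to 1.08) spans equal level. Cul7, which pairs with the F-box protein FBXW8, had 631 and 659 counts, with an interval of 0.936 to 1.17 for the same ratio. As shares of all cullin counts, Cul1 made up 22.4% in either library and Cul3 28.6% in CON and 30.6% in PKCi. Cul9 had 1 count in CON and 0 in PKCi. Both of those counts lie under the floor of 3 counts, which is 0.186 CPM in CON and 0.187 in PKCi.

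**Figure D3:**
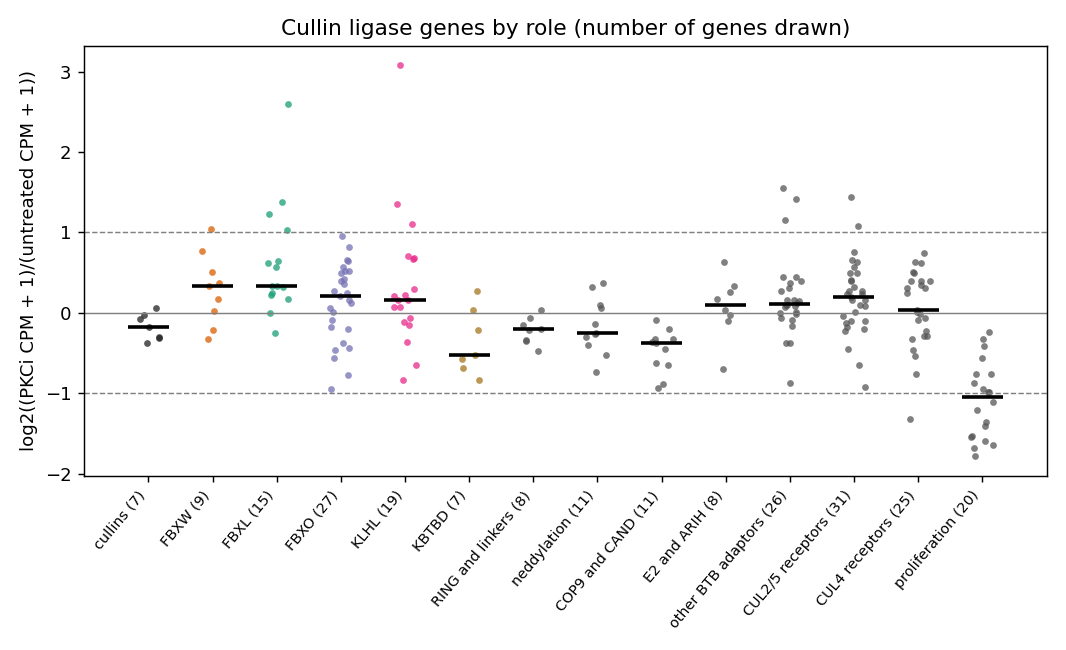
Log2((PKCi CPM + 1)/(CON CPM + 1)) of each measured gene, 1 point per gene, for the families in colour and the lists of other genes in grey, with the median as a bar, lines at 0, 1 and −1 and the number of genes in brackets. The cullins keep within −0.37 and 0.06, the FBXL genes lie mostly above 0, and the Kbtbd genes have a median of −0.52.

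Leucine-rich repeat F-box genes were the family with the most even direction. Of 15 measured Fbxl genes 14 lay above 0, 13 under TMM and under DESeq2 scaling, with a median log2 ratio of 0.33. Among the 14, Fbxl21 and Fbxl22 passed the filter only through PKCi, which fixed their direction, and Fbxl15 had 251 counts in both libraries. At least 2-fold higher were 4 of the 15, or 26.7%, against 6.46% of protein-coding genes. Of these 4, Fbxl21 and Fbxl22 were measured through the PKCi library alone. With a filter of 5 CPM, only Fbxl5 and Fbxl20 of the 4 remained. The summed level of the family was 507 CPM in CON and 770 in PKCi. Fbxl5, the iron- and oxygen-sensing adaptor that removes the iron regulatory protein IRP2, had 1599 counts in CON and 3760 in PKCi, or 99.4 and 234 CPM. Its ratio was 2.35-fold (2.22 to 2.50), the narrowest interval among the 8 genes at least 2-fold higher, and its log2 ratio 1.23. The gene (ENSMUSG00000039753) lies at chr5:43744615-43821638 on the minus strand. Fbxl5 made up 19.6% of all Fbxl counts in CON (18.7 to 20.5) and 30.4% in PKCi (29.6 to 31.2), while Fbxl14, known for the turnover of Snail, made up 16.8% and 9.28%. Fbxl14 was the 1 gene of the family below 0, at 1373 and 1149 counts, 1.19-fold lower (1.10 to 1.29).

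Beside Fbxl5 and Fbxl20, the other two Fbxl genes at least 2-fold higher were low in both libraries. Fbxl21 had 9 counts in CON and 35 in PKCi, 3.89-fold higher (1.83 to 9.21) with a log2 ratio of 1.03. Because Fbxl21 is so low, its ratio rests on few counts. Fbxl22, known from the cardiac sarcomere, had 10 and 52 counts, 5.21-fold higher (2.62 to 11.5). It shares 317 exon bases with Herc1 on the opposite strand, which had 1246 and 1289 counts.

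WD40-repeat F-box genes consisted of an undetected block and a small expressed set. Of 23 Fbxw genes, 14 were at 0 counts in both libraries, and all 14 lie in 1 cluster on chromosome 9 (109139447 to 110476694) that also holds Klhl18, at 308 and 360 counts. Of the 9 measured Fbxw genes 7 lay above 0, with a median log2 ratio of 0.34. Among the 7, Fbxw10 passed the filter only through PKCi, which fixed its direction. Fbxw7, the adaptor that removes cyclin E, MYC and NOTCH, had 300 counts in CON and 394 in PKCi, 1.31-fold higher (1.13 to 1.53). Fbxw11, 1 of the β-TrCP proteins that bind phosphorylated IκB and β-catenin, had 2258 and 2289 counts, with an interval of 0.957 to 1.08. Fbxw8, the partner of CUL7, had 1498 and 1190 counts, 1.26-fold lower (1.16 to 1.36). The direction within the family was therefore mixed among its abundant genes.

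Fbxw10 had the largest ratio of the family on few counts, 13 in CON and 44 in PKCi. That is 3.39-fold higher (1.79 to 6.86), with a log2 ratio of 1.05, just past the 2-fold line. It shares 237 exon bases with Trim16 on the same strand, which had 684 and 855 counts. How reads in shared bases were counted is not given in the sources used here, and their part in the Fbxw10 value was not tested. Fbxw17 had 15.5 CPM in CON and 27.2 in PKCi, 1.76-fold higher.

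The Fbxo genes, whose members carry various or no known substrate domains, held the adaptors just short of 2-fold in either direction. Of 27 measured, 18 lay above 0 (17 under TMM scaling) and 9 below, with a median of 0.21, and 0 passed 2-fold. Fbxo25, a relative of the muscle atrophy adaptor that was left out, had 203 counts in CON and 407 in PKCi, 2.01-fold higher in the plain ratio (1.69 to 2.39) and 0.95 on the log2 scale. Fbxo31, known for the turnover of cyclin D1 after DNA damage, had 1131 and 2007 counts, 1.78-fold higher (1.65 to 1.91). Fbxo42, an adaptor for p53, had 2770 and 4358 counts, 1.58-fold higher (1.502 to 1.653). Fbxo11, known for the turnover of BCL6, had 1614 and 2156 counts, 1.34-fold higher (1.25 to 1.43).

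On the lower side stood Fbxo7 and Fbxo5. Fbxo7, linked to mitophagy and to an inherited form of parkinsonism, had 695 counts in CON and 353 in PKCi, 1.97-fold lower (1.73 to 2.24) and −0.94 on the log2 scale, the most negative value of all 84 genes. Fbxo5 encodes EMI1, the inhibitor of the anaphase-promoting complex that keeps cyclins stable through S phase. It had 883 and 508 counts, 1.74-fold lower (1.55 to 1.94), with a log2 ratio of −0.78. In the same libraries 20 of 20 listed proliferation genes lay below 0, with a median of −1.04. At least 2-fold lower were 10 of the 20, or 50%, against 5.36% of protein-coding genes. The part of the proliferation genes in the Fbxo5 value was not tested.

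Fbxo5 (ENSMUSG00000019773, chr10:5799160-5805600, minus strand) was 1 of 10 measured ligase genes with the CHR letters in the promoter window. The 30 bases around its match are shown because CHR letters are known from promoters of cell-cycle genes, and the gene was chosen after its values were seen. They lie at chr10:5805445-5805474 on the minus strand of GRCm38.p6. The capitals mark the match, which reads TTTGAA on the other strand and begins at base 4 after the RefSeq start. That start lies 135 bases inside the listed gene span, so the position is not counted from the outermost annotated start.
Fbxo5: ttgggcaccaaaTTCAAAgattttaaaagt
The match is a description of the letters in this window. Of the other genes with these letters, Klhl5, Fbxo48, Fbxo9, Fbxl14 and Klhl9 were lower in PKCi. Fbxw5, Kbtbd2, Fbxl19 and Fbxo8 were higher.

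The Fbxo genes with an FBA domain, some of which bind glycans on misfolded glycoproteins, had values on either side of 0. Of 5 such genes 3 were measured. Fbxo6 had 460 counts in CON and 560 in PKCi, 1.22-fold higher (1.08 to 1.38). Fbxo44 had 119 and 120 counts, and its sign flips under TMM scaling. Fbxo2 had 88 and 64, with an interval of 0.984 to 1.93 for the factor by which it was lower. The 3 genes lie in 1 cluster on chromosome 4.

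Among the Kelch-like genes a few abundant adaptors were higher in PKCi, while the most abundant one was slightly lower. Of 19 measured Klhl genes 13 lay above 0 and 6 below, with a median of 0.16. At least 2-fold higher were 3 of the 19, or 15.8%, against 6.46% of protein-coding genes. Klhl2, an adaptor for WNK kinases, had 1624 counts in CON and 2658 in PKCi, 1.64-fold higher (1.54 to 1.74). Klhl21, which directs Aurora B at anaphase, had 978 and 1562 counts, 1.599-fold higher (1.48 to 1.73). Klhl9, another Aurora B adaptor, had 3586 and 3217 counts, 1.11-fold lower (1.06 to 1.17). Klhl13, the known partner of KLHL9, was at 0 counts in both libraries.

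Klhl9 remained the largest single contributor to Klhl and Kbtbd counts, at 25.1% in CON and 19.0% in PKCi. Klhl2 made up 11.4% and 15.7%, and Klhl5 5.41% and 2.52%; the genes given as shares of a family were chosen after their values were seen. Klhl5 was the most negative Klhl gene, with 774 counts in CON and 425 in PKCi, 1.82-fold lower (1.61 to 2.05) and −0.84 on the log2 scale. Klhl33 was measured at a low level, with 21 and 79 counts, 3.77-fold higher (2.30 to 6.42) and 1.36 on the log2 scale. It was the 1 measured gene of 9 in the list of striated muscle adaptors, 5 of which were at 0 in both libraries. Of 6 striated muscle markers 5 were at 0 in both libraries, and the list summed to 0.559 CPM in CON and 1.80 in PKCi.

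Kbtbd genes ran mostly the other way. Of 7 measured, 5 lay below 0 and 2 above, with a median of −0.52, and 0 passed 2-fold on the log2(CPM + 1) scale. Kbtbd11 had 91 counts in CON and 44 in PKCi, 2.07-fold lower in the plain ratio (1.43 to 3.03) and −0.83 on the log2 scale. Kbtbd6 had 42 and 20 counts, 2.10-fold lower (1.20 to 3.77), and Kbtbd7 had 204 and 137, 1.49-fold lower (1.19 to 1.86). The last 2 are neighbouring single-exon genes on chromosome 14 whose products act together on the RAC1 activator TIAM1. Kbtbd2, which removes the free regulatory subunit of PI3-kinase, was the abundant exception, at 1291 and 1567 counts, 1.22-fold higher (1.13 to 1.31). Because of it the summed level of the family was 125 CPM in CON and 130 in PKCi.

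Grouped by what the adaptors are known to act on, 11 of 15 cell division adaptors were measured, 8 of them above 0 and 3 below (7 and 4 under TMM scaling), with a median of 0.22 and 0 past 2-fold. The median of the 12 measured adaptors for signalling proteins and transcription factors was 0.11, again with 0 past 2-fold. In the cytoskeleton, WNK and secretory traffic list, of which Klhl17 was not analysed here, 8 genes were measured, 4 above 0 and 4 below. The 2 past 2-fold were Klhl24 and Fbxl20, or 25% of the 8, against 6.46% of protein-coding genes. These lists were chosen with results of these libraries known and are given as descriptions.

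Per length, in TPM (counts per listed base, scaled to a total of 1000000), the highest levels in CON belonged to Klhl9, Cul3 and Cul1, which were slightly lower in PKCi. Klhl9 stood at 173 TPM in CON and 157 in PKCi, Cul3 at 151 and 143, and Cul1 at 142 and 127. Fbxo42 was at 94.2 and 149, Fbxw11 at 105 and 108, and Fbxo11 at 78.6 and 106. Next came Fbxl6 at 84.0 and 95.6, Fbxl14 at 93.5 and 78.8, Kbtbd2 at 63.8 and 78.0, and Fbxo22, an adaptor for the histone demethylase KDM4A, at 68.6 and 72.2. In PKCi, Fbxo42 thus stood above Cul3 and Cul1, which it did not in CON. With 1 library per group the spread of these levels over cultures is unknown, so neighbouring levels cannot be ordered beyond these 2 libraries.

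**Figure D4:**
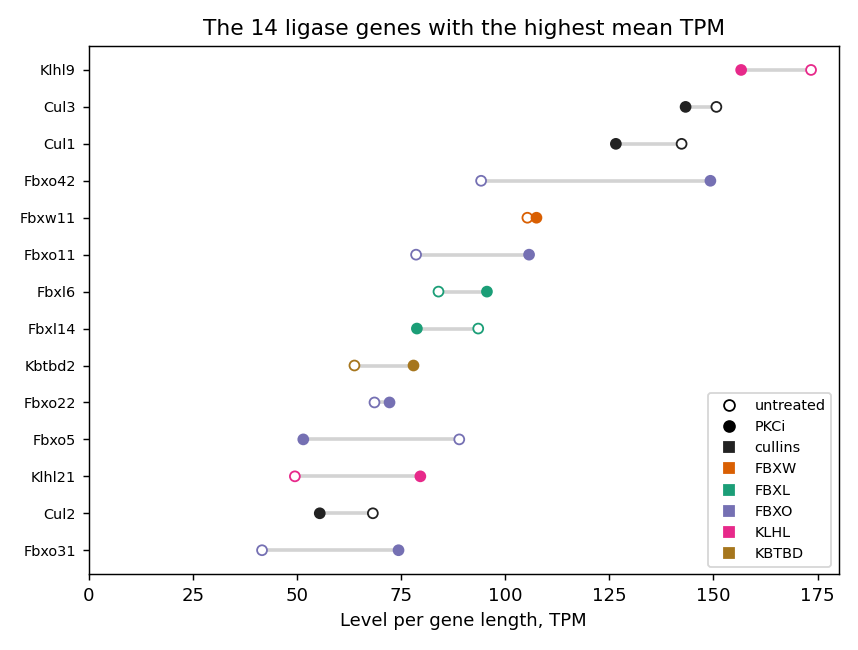
Level per length (TPM) of the most abundant ligase genes in the CON (open) and PKCi (filled) libraries, 1 point per library, coloured by family. Klhl9 (173 and 157 TPM) and Cul3 (151 and 143 TPM) head the CON library, and Fbxo42 is at 94.2 TPM in CON and 149 TPM in PKCi.

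Of the 46 genes under the filter, 30 had 0 counts in both libraries and 16 had counts, at most 14 in a library. A count of 0 allows up to 3 counts, so the 30 genes were not detected at this depth, which does not show them absent. Some of the 16 lay above the floor of 3 counts in a library and were thus detected, though below the filter. The one with 14 counts was Klhl4, which had 1 in PKCi; it was singled out after its values were seen, and the ratio of 13.98-fold lower has an interval of 2.13 to 591. Klhl3, the kidney WNK adaptor, was at 0 counts in both libraries, in contrast to its relative Klhl2.

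The rest of the cullin machinery was examined through lists of genes outside the symbol rule. The list of RING, linker and core subunits also held Cacul1 and Glmn, which are not such subunits. All 8 genes of the list were measured, 7 below 0 and 1 above, with a median of −0.20. The 1 above was Cacul1, at 0.03. Skp1a, the F-box linker, had 177 CPM in CON and 140 in PKCi, 1.27-fold lower (1.20 to 1.34), and the RING subunit Rbx1 had 116 and 100.2 CPM, 1.16-fold lower (1.08 to 1.24). The most negative of the list was Rnf7, the RING subunit used with CUL5, at 68.2 and 48.8 CPM, 1.40-fold lower. Of 11 neddylation genes 7 lay below 0 and 4 above; Nedd8 had 89.4 and 74.5 CPM, 1.20-fold lower (1.11 to 1.30), and Ube2f, a NEDD8-conjugating enzyme, had 1622 and 964 counts, 1.68-fold lower (1.55 to 1.82). The COP9 signalosome and CAND list was the most even, with 11 of 11 measured genes below 0 and a median of −0.38. The count was the same under TMM, DESeq2 and TPM scaling, where the median was −0.39, −0.38 and −0.37. Shifts so small could not change it, since the gene nearest 0, Cops9, was at −0.08. Cand1, the adaptor exchange factor, had 548 and 400 CPM, 1.37-fold lower (1.33 to 1.41). The signalosome subunits Cops3 and Cops4 differed more, at 1639 and 850 counts, 1.93-fold lower (1.77 to 2.09), and at 1702 and 912 counts, 1.86-fold lower (1.72 to 2.02). The ubiquitin-transferring enzymes used with cullins had 5 genes above 0 and 3 below, with a median of 0.10; Cdc34 had 1826 and 1122 counts, 1.63-fold lower (1.51 to 1.75). None of these 4 lists had a gene past 2-fold in either direction, against 6.46% higher and 5.36% lower of protein-coding genes. Of the 10943 measured protein-coding genes 5631 lay below 0.

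Adaptors under other symbols held further differences of 2-fold. Among 26 measured CUL3 BTB adaptors 3, or 11.5%, were at least 2-fold higher and 0 lower, against 6.46% and 5.36% of protein-coding genes. The higher adaptors included Rhobtb1, at 5.72 CPM in CON and 18.8 in PKCi, and Kctd21, at 2.49 and 8.28. Rhobtb3 lay on the other side, at 1783 and 967 counts, 1.84-fold lower (1.70 to 1.99). Keap1, the adaptor for NRF2, had 1190 and 1192 counts. Of 31 measured CUL2 and CUL5 receptors 2, or 6.45%, were at least 2-fold higher, near the 6.46% of protein-coding genes. These were Spsb1 (20.3 and 56.5 CPM), a receptor for inducible nitric oxide synthase, and Pcmtd2 (338 and 731 counts). Lrr1 in the same list had 15.5 and 7.72 CPM, 2.01-fold lower in the plain ratio (1.62 to 2.52) and −0.92 on the log2 scale.

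On the lower side, the 1 receptor at least 2-fold lower among 25 CUL4 receptors was Dtl, which removes the licensing factor CDT1 in S phase. It had 115 and 45.2 CPM, 2.54-fold lower (2.33 to 2.77). The share lower was 4% of the CUL4 receptors, against 5.36% of protein-coding genes. Of the F-box genes under other symbols, 6 of 9 were measured, 3 on either side of 0, and 0 passed 2-fold. Skp2, the adaptor for the CDK inhibitor p27, had 1128 counts in CON and 559 in PKCi, 2.02-fold lower in the plain ratio (1.82 to 2.23) and −0.99 on the log2 scale. Ccnf, which encodes cyclin F, had 2067 and 1086 counts, 1.90-fold lower (1.77 to 2.05). Kdm2a, a histone demethylase with an F-box, went the other way, at 1821 and 3073 counts, 1.69-fold higher (1.59 to 1.79). Btrc, the other β-TrCP gene, had 440 and 451 counts, with an interval of 0.898 to 1.17.

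Other ubiquitin genes grouped by symbol gave a range in which the ligase genes lay between the Trim and the Usp genes. The median was 0.31 over 32 measured Trim genes, 7 of which passed 2-fold upward and 0 downward. Of 64 measured Rnf genes 6 were higher and 1 lower, with a median of 0.12. The 44 measured Usp deubiquitinases had a median of −0.01, with 2 higher and 1 lower. Proteasome (Psm) genes had a median of −0.47, with 33 of 36 below 0. Shares at least 2-fold higher were 21.9% of Trim, 9.38% of Rnf and 4.55% of Usp genes, against 6.46% of protein-coding genes. Shares lower were 0, 1.56% and 2.27%, against 5.36%. No test of these differences was made, and nothing is called particular to the ligase genes from them.

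Gene length and level had little relation to the ligase genes' log2 ratios. Over the 84 genes the Spearman correlation was 0.08 with listed length, the same as over all protein-coding genes, and 0.01 with level; both describe genes within these libraries, which are not replicates. The median listed length was 6778.5 bases for the 8 genes at least 2-fold higher and 4416 for the 84. Of the 130 genes 33 share exon bases with another annotated gene, 15 of them 10% or more of their length.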

How the data were processed

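RNA-seq of 1 untreated and 1 PKCi-treated sample of CMT167R cells was used. The authors deposited whole-number read counts per gene, although the table's name speaks of FPKM. HISAT2 2.0.5 and the build GRCm38 (mm10) are named in the submitters' processing notes; no counting program, strand setting or annotation release is named in the sources used here. Per the labels, stranded mRNA libraries were made, while another protocol text there names an unstranded kit and retinas. From the counts, CPM were computed over all rows and log2((PKCi CPM + 1)/(CON CPM + 1)) for genes that reached 1 CPM in either library; TPM used the table's gene lengths. Ratios have exact (Clopper-Pearson, conditional binomial) 95% intervals, which cover counting error only, since amplified reads that carry no molecular identifiers are not separate molecules. The floor was 3 counts. With 1 library per group no test was run. Scaling factors of edgeR 4.0.16 (TMM) and DESeq2 1.42.0 were alternatives, as were pseudocounts of 0.5 and 2 CPM, filters of 5 CPM and none, and TPM. A plain ratio over genes with at least 20 counts was added after seeing the data. Python 3.11.15, pandas 2.3.3, scipy 1.17.1 and R 4.3.3 were used, and the calculations were tested on simulated data.

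Genes were named by rule: all cullins, ligase genes with an absolute log2 ratio of at least 0.8, the 10 with the highest TPM, up to 4 per list of ligase genes by absolute log2 ratio, those past 2-fold in the other lists, and some named whatever their values; of the proliferation list only its counts are given. Genes outside the rule were chosen after their values were seen. The members and all lists were chosen with earlier results of these data known. The gene identifiers of all 130 genes were found in GENCODE M21, 127 at the same position. RefSeq promoter windows were found for 102. Protein sequences were not analysed here, and a few genes are not reported here.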

Additional observations from a re-analysis of the deposited data

How the results depend on the processing

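No paired analysis was possible because each group has 1 library and the labels carry no replicate numbers; for the same reason no library could be left out. The count of ligase genes at least 2-fold higher was 8 under TMM, DESeq2 size factors, a pseudocount of 0.5 CPM and no filter (of 100 genes). It was 6 under TPM, 5 with a pseudocount of 2 CPM and 4 with a filter of 5 CPM, where fewer genes are tested. As a share this was 9.52% under TMM, DESeq2 and the lower pseudocount, against 6.42%, 6.50% and 8.08% of all genes. Under TPM it was 7.14% against 9.86%, and with the higher pseudocount 5.95% against 5.03%. With a filter of 5 CPM it was 5.33% against 6.18%, and with no filter 8% against 3.84%. Under the plain ratio the higher count was 10 of 84, or 11.9%, against 9.93% of all genes. The count at least 2-fold lower was then 3 of 84 (Kbtbd11, Kbtbd6 and Klhl32) instead of 0, beside 7.32% of all genes. Without the added pseudocount, low genes count in full. The median log2 ratio kept within 0.16 and 0.20 in all settings. Over all genes the counts were 802 higher and 630 lower of 12273 in the main setting. They became 1398 and 985 of 14174 under TPM and 1261 and 930 of 12697 under the plain ratio. Among 40 named ligase genes only Fbxo44, near 0, changed sign, and it did so under TMM. The TMM factors were 0.995 in CON and 1.005 in PKCi, and the DESeq2 factors were 1 in both. Neither factors so near 1 nor another pseudocount could turn the 8 called genes, so their unchanged direction is no check of them. The log2 ratios of Klhl24 and Fbxl20 under TPM were 2.78 and 2.32. At 16.1 counts per CPM, ratios of genes near 1 CPM have intervals several-fold wide.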

Other observations

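Values of undetected ligase genes and their annotated neighbours are given here; the genes were chosen after their values were seen. Klhl22, an adaptor known for mitotic exit and nutrient signalling, had 1 count in CON and 0 in PKCi; Med15 near it had 1274 and 1509, and Scarf2 on its other side was at 0 in both libraries. The scaffold gene Cul9 had 1 and 0 counts, with Dnph1 at 616 and 273 on one side and Srf at 1329 and 771 on the other. Klhl3 was at 0 in both libraries, with Hnrnpa0 at 11018 and 7923 counts on one side and Spock1 and Trpc7 at 0 on the other. Klhl13 was at 0, with Wdr44 at 149 and 234 counts on one side and Slc6a14 at 0 on the other. Fbxl7 was at 0, with Ank at 11630 and 10104 counts on one side and Zfp622 at 891 and 1192 on the other, where a further neighbour was at 0. The share of all counts that fell on the 130 ligase genes was 0.366% in CON and 0.425% in PKCi.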
